A study of Mus musculus with 4 samples.

Results

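The genes described here encode tubulin isotypes, a family of related proteins that build microtubules or, for γ-tubulin, nucleate them. They were chosen by symbol: 5 α-tubulin genes (*Tuba1a*, *Tuba1b*, *Tuba1c*, *Tuba3a* and *Tuba3b*), 4 β-tubulin genes (*Tubb2a*, *Tubb3*, *Tubb4b* and *Tubb5*) and the γ-tubulin gene *Tubg1*. All 10 were found in a table of 11598 genes. The table holds ribosome-protected fragments (RPFs), the short stretches of mRNA that a translating ribosome shields from nuclease, measured by Ribo-seq in leptotene and zygotene spermatocytes, the cells in early meiotic prophase. They were sorted by flow cytometry after Hoechst staining from testes of mice at 12 dpp (days postpartum). The comparison asks how RPF levels differ when *Eef1g*, which encodes the γ subunit of translation elongation factor 1, is missing from germ cells.

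The control group holds 2 libraries, called wild type in the sample labels and littermate control in the study, and the *Eef1g*-cKO group holds 2 libraries. In *Eef1g*-cKO mice, floxed *Eef1g* exons are deleted by *Stra8*-GFPCre, which is active in male germ cells from the spermatogonial stage, so somatic cells keep the gene. The floxed mice were made on a C57BL/6J background. Which floxed or Cre alleles the control animals carried, and whether animals were pooled for a library, is not given in the sources used here. The 2 libraries of a group are described as independent biological replicates.

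α- and β-tubulin pair as a heterodimer that polymerises into microtubules, while γ-tubulin sits in a ring complex at the centrosome that nucleates them. Newly made α- and β-tubulin need the chaperonin CCT and dedicated folding cofactors. Cells also sense free tubulin: the protein TTC5 reads the first residues of a nascent tubulin on the ribosome and triggers decay of that mRNA. In early meiosis, microtubules and dynein move chromosome ends along the nuclear envelope while homologs find each other, and proliferating spermatogonia use the same proteins in their mitotic spindles.

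The first 30 coding bases of 6 members are shown because they hold the part that the autoregulation pathway reads. Capitals mark the first 4 codons. The sequences are from GENCODE M21 on the GRCm38 genome.
Tuba3a: ATGCGTGAGTGTatctctatccacgtgggg
Tuba3b: ATGCGTGAGTGTatctctatccacgtgggg
Tuba1b: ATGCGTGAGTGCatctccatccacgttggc
Tubb4b: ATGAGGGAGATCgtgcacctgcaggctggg
Tubb5: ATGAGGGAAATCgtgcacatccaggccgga
Tubg1: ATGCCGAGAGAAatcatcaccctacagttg
The start was identical in *Tuba3a* and *Tuba3b*, so a footprint that lies wholly within these coding bases cannot name its gene. Bases before the start codon were not compared. *Tubg1* begins with other codons than the α and β genes.

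The last 30 coding bases are shown for the 4 most abundant members, because they encode the carboxy-terminal tail, the acidic stretch on the microtubule surface where isotypes differ most and where polyglutamylation takes place. Capitals mark the stop codon.
Tuba3a: gcagaggcagaagaaggggaggagtacTGA
Tuba3b: gcagaggcagaagaaggggaggagtacTGA
Tubb4b: gaggaggaggctgaggaggaggtggctTAG
Tubb5: ttcggagaggaggcagaagaggaggccTAA
*Tuba3a* and *Tuba3b* were again identical, while *Tubb4b* and *Tubb5* ended differently.

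*Tuba3a* (chr6:125278270-125286081) and *Tuba3b* (chr6:145615963-145621477) lie on chromosome 6 of GRCm38 and encode α-tubulins known for their expression in testis. Their coding sequences, each of 1353 bases, were 97.0% identical, with 41 mismatches and a longest identical run of 155 bases. *Tuba1a* (chr15:98949847-98953501), *Tuba1b* (chr15:98931429-98934390) and *Tuba1c* (chr15:99029891-99038105) are neighbours on chromosome 15 and encode the α-tubulins that most somatic cells use. Their pairwise coding identity was 97.1% to 98.3%. *Tubb4b* (chr2:25222158-25224702) and *Tubb5* (chr17:35833920-35838301), which encode widely expressed β-tubulins, were 82.2% identical to each other. *Tubb2a* (chr13:34074278-34078008) and *Tubb3* (chr8:123411553-123422015) encode β-tubulins best known from neurons, and *Tubg1* is at chr11:101119904-101126423.

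How often a footprint can name its gene was measured by cutting each coding sequence into every window of 28 bases, a usual footprint length, and searching each for an exact copy at another locus of the genome or in a transcript of another gene. *Tuba1a*, *Tuba1b* and *Tuba1c* had such a copy for 98.2%, 98.0% and 95.2% of their windows. That left 24, 26 and 63 windows particular to each gene. *Tuba3a* and *Tuba3b* had a copy for 54.4% and 57.2%, and they shared 671 windows with each other, 50.6% of each. *Tubb4b* had a copy for 80.2%, mostly in its pseudogenes *Tubb4b-ps1* (67.7%) and *Tubb4b-ps2* (42.6%). *Tubb2a* had one for 71.8%, with 62.9% shared with *Tubb2b*, and *Tubg1* for 35.0%, with 33.0% shared with *Tubg2*. *Tubb3* had one for 31.7%, while *Tubb5* had one for 5.73% and is the member whose reads are named best by sequence. How the authors' counting treated reads that match several places is not given in the sources used here. Levels within the *Tuba1* group, the levels of *Tubb4b* and *Tubb2a*, and the division between *Tuba3a* and *Tuba3b* are therefore uncertain. *Tubb2b* has no row in the table, and 12 reads in control 1 were counted for *Tubg2*, with none in the other libraries.

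**Figure D1:**
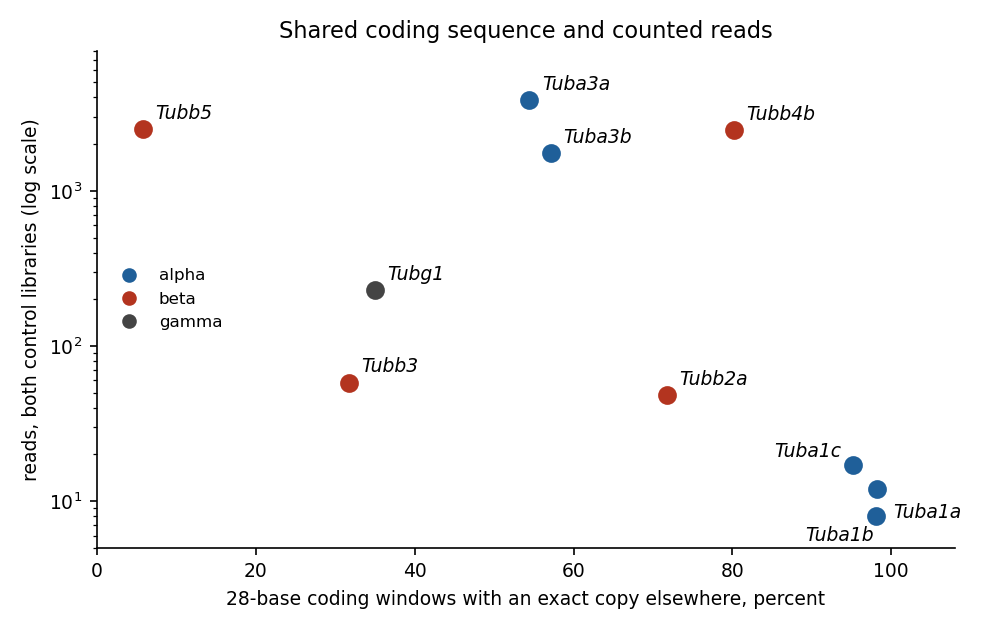
Each point is a tubulin gene, placed by the percentage of its 28-base coding windows that have an exact copy elsewhere (horizontal axis) and by its reads summed over both control libraries (vertical axis, log scale), with colours for the α, β and γ class. The 3 Tuba1 genes lie at 95.2% to 98.2% with 8 to 17 reads, while Tubb5, at 5.73%, has 2489 reads and Tubb4b, at 80.2%, has 2460.

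Reads counted on genes were 2479504 and 1384282 in control 1 and 2, and 223906 and 407979 in *Eef1g*-cKO 1 and 2, so 1 read on a gene of 1 kb equals 0.403 to 4.47 FPKM (fragments per kilobase of gene and per 1000000 reads counted on genes). The targeted gene *Eef1g* had 107 and 58 reads in control against 0 and 4 in *Eef1g*-cKO, or 27.6 and 26.8 against 0 and 6.26 FPKM (limma log2 fold change -3.39, standard error 0.91, adjusted p = 0.0731, edgeR adjusted p = 0.0078). Its log2 value was -1.96 without *Eef1g*-cKO 1 and -4.82, against 0 reads and so no bound, without *Eef1g*-cKO 2. Of 12 leptotene and zygotene markers 11 were in the table, none at 0 in a whole group and *Meioc* without a row, with a summed level of 3820 and 3881 FPKM in control and 9411 to 10580 in *Eef1g*-cKO. All 13 spermatogonial markers were present, and their sum was 1804 and 2064 FPKM in control and 366 to 416 in *Eef1g*-cKO, with 7 of them decreased by the adjusted p of the limma test, where 4.97% of all tested genes were decreased and 2.87% increased. By the same test 5 of the 11 leptotene and zygotene markers and 2 of the 7 pachytene markers were increased. Of the 12 Sertoli cell markers 10 were present, at 352 to 898 FPKM in control and 367 to 456 in *Eef1g*-cKO, with *Gata4* at 0 in both *Eef1g*-cKO libraries and *Rhox5* and *Fshr* without a row. These 10 were tested, with a median log2 fold change of -1.44 and 0 called in either direction by limma's adjusted p. By unadjusted p 3 were decreased and 0 increased, where 16.3% of all tested genes were decreased and 7.32% increased. Pachytene markers (7 of 11 present) summed to 476 to 639 FPKM in control and 1763 to 1822 in *Eef1g*-cKO. Spermatid (3 of 12 present), Leydig (3 of 8), peritubular (5 of 7) and macrophage and blood markers (1 of 10) summed to at most 63.4 FPKM in any library. What part these differences in marker level have in the tubulin values was not tested. By antibody staining of sorted cells, the study reports a comparable share of leptotene and zygotene spermatocytes in both genotypes.

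Tubulin took a smaller share of RPFs in both *Eef1g*-cKO libraries. The 10 members together had 2417 and 3556 RPM (reads per 1000000 reads counted on genes) in control against 603 and 691 in *Eef1g*-cKO. The α members had 1240 and 1848 RPM in control against 384 and 395, and the β members 1136 and 1617 against 214 and 284. *Tubg1* had 41.5 and 91.0 against 4.47 and 12.3. In each of these sums both *Eef1g*-cKO libraries lay below both control libraries. The same was true of 39.0% of all genes in the table, and the reverse of 22.5%. Fewer cells that translate a tubulin mRNA, less of that mRNA per cell and fewer ribosomes on each mRNA cannot be told apart in these values.

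Among single genes, *Tuba3a*, *Tuba3b*, *Tubb4b*, *Tubb5* and *Tubg1* fell in *Eef1g*-cKO, with log2 fold changes of -1.68 to -2.81. *Tubb2a* was called lower but had no read in *Eef1g*-cKO, and no tested member was called higher. The test was limma on log2(FPKM + 1) in the 10475 genes that averaged 1 FPKM or more. A gene was called at a Benjamini-Hochberg adjusted p under 0.05 together with a log2 fold change beyond 1 in either direction. It called 4.97% of all tested genes decreased and 2.87% increased. By unadjusted p it called the same 6 members, where 16.3% of all tested genes were decreased and 7.32% increased. Of the 10 members, 8 were tested, since *Tuba1a* and *Tuba1c* had means under 1 FPKM. *Tubb2a* reached the test through its control level alone, so the count of 6 is a description of these members and not support for a change of the family. With 1 library left out, its group holds 1 library and the variance comes from the other group alone. The number of calls in such a fit then follows the group that supplies the variance, so no weight is placed on it. Over the omitted libraries the log2 fold change was -2.41 to -1.77 for *Tuba3a*, -1.91 to -1.44 for *Tuba3b* and -2.64 to -1.76 for *Tubb4b*. It was -3.43 to -2.18 for *Tubb5* and -3.38 to -2.19 for *Tubg1*. edgeR and DESeq2 on the recovered reads each called *Tuba3a*, *Tuba3b*, *Tubb4b*, *Tubb5* and *Tubg1* decreased by adjusted p, where they called 11.2% and 5.34% of the genes they tested decreased and 8.75% and 5.94% increased.

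The median of all tested genes was -0.23 on the log2 scale, against which the values of the members are to be read. With each library centred on its median, this shifts to -0.02, and the whole-table calls turn from 301 increased and 521 decreased to 521 increased and 383 decreased. On the centred scale *Tuba3a*, *Tuba3b*, *Tubb4b*, *Tubb5* and *Tubg1* had log2 fold changes of -1.46 to -2.59, each called by limma's adjusted p, while *Tubb3* was at -0.56 and *Tuba1b* at 0.091, neither of them called.

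**Figure D2:**
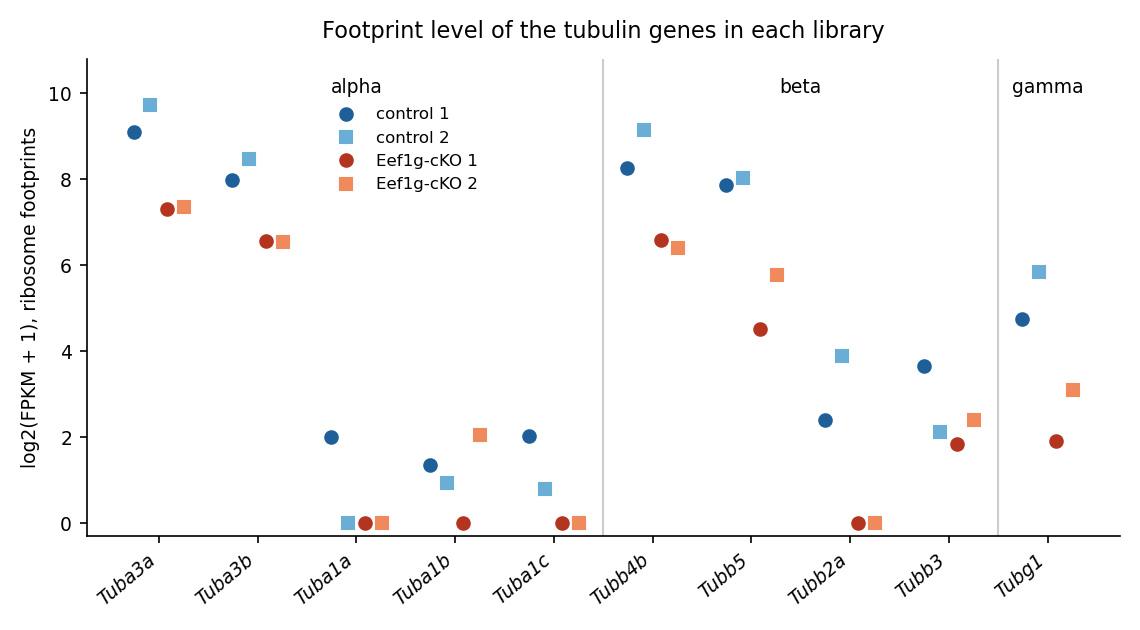
RPF level of each tubulin gene as log2(FPKM + 1) in the 2 control libraries (dark and light blue) and the 2 Eef1g-cKO libraries (red and orange), with 1 point per library and grey lines between the α, β and γ genes. For Tuba3a, Tuba3b, Tubb4b, Tubb5 and Tubg1 both Eef1g-cKO points lie below both control points, the 3 Tuba1 genes lie far below Tuba3a and Tuba3b, and Tubb3 overlaps between groups.

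*Tuba3a* was the most abundant member by FPKM and per coding length in all 4 libraries, with 2053 and 1787 reads in control against 53 and 100 in *Eef1g*-cKO. These are 549 and 855 FPKM in control against 157 and 162 FPKM in *Eef1g*-cKO. The control libraries differed from each other more than the *Eef1g*-cKO libraries did, and the groups did not overlap. *Tuba3a* fell from 702 ± 217 to 160 ± 3.94 FPKM (SD, n = 2 libraries a group), by limma a log2 fold change of -2.09 ± 0.27 (standard error, adjusted p = 0.0283, edgeR adjusted p = 9.99e-06). From the pooled reads the control rate was 4.10 times the *Eef1g*-cKO rate (95% interval 3.49 to 4.86, counting error only). Per unique window *Tubb4b*, with more copied windows, was above *Tuba3a* in all 4 libraries, so their order differs between these scales.

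*Tuba3b*, the near copy of *Tuba3a*, was also lower in both *Eef1g*-cKO libraries. Its counts were 988 and 767 reads in control against 33 and 59 in *Eef1g*-cKO, or 254 and 354 FPKM against 94.1 and 92.3. The groups did not overlap, and the log2 fold change was -1.68 (standard error 0.23, limma adjusted p = 0.0296), the smallest of the 6 called members. The pooled control rate was 3.12 times the *Eef1g*-cKO rate (95% interval 2.53 to 3.89, counting error only).

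The ratio of *Tuba3a* to *Tuba3b* in FPKM was 2.16 and 2.42 in control against 1.67 and 1.76 in *Eef1g*-cKO. It was lower in both *Eef1g*-cKO libraries, but with 2 libraries a group the exact two-sided permutation test cannot give a p below 0.333, which is the p it gave here. As a share of the reads of both genes, *Tuba3a* had 67.5% (95% exact interval 65.8% to 69.2%) and 70.0% (68.1% to 71.7%) in control and 61.6% (50.5% to 71.9%) and 62.9% (54.9% to 70.4%) in *Eef1g*-cKO. The *Eef1g*-cKO intervals reached into those of control, but overlap of intervals is not a test of a difference. With 2 libraries a group, neither a shift between the paralogs nor its absence can be shown. In any case 50.6% of each gene's windows do not separate them.

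*Tuba1a* had 12 and 0 reads in control against 0 and 0 in *Eef1g*-cKO. *Tuba1c* had 15 and 2 against 0 and 0. *Tuba1b* had 6 and 2 against 0 and 2, or 1.55 and 0.925 FPKM against 0 and 3.14. The 15 reads of *Tuba1c* in control 1 were the most for any of the 3 genes, at depths where *Tuba3a* had 53 to 2053. For *Tuba1a* and *Tuba1c* the control mean was below the level that 3 reads would give in *Eef1g*-cKO (6.52 and 5.25 FPKM), so no fold is given. *Tuba1b* had a fitted log2 value of -0.12 ± 0.79 (standard error, limma adjusted p = 0.929), and its pooled rate ratio of control over *Eef1g*-cKO was 0.654 (95% interval 0.131 to 6.32), so neither a rise nor a fall was detectable at this depth. At least 95.2% of the windows of these genes have copies elsewhere, and the part of the counting in their low values was not tested. Set against its unique windows, *Tuba1b* had 0.308 control reads per unique window and *Tuba3a* 6.36.

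*Tuba3a* and *Tuba3b* together made up 98.8% to 100% of the summed FPKM of the α members in the 4 libraries. This sum leaves out *Tuba4a*, which had 22.8 and 30.3 FPKM in control against 8.70 and 8.36 in *Eef1g*-cKO. With *Tuba4a* counted, the share of the pair would be lower. With the reads of each gene divided by its unique windows, a scale that takes all reads to come from those windows, the pair made up 84.1% and 97.5% in control against 100% and 77.8% in *Eef1g*-cKO. The 77.8% rests on 2 reads of *Tuba1b*. By FPKM *Tuba3a* alone took 67.7% and 70.7% in control against 62.5% and 63.0% in *Eef1g*-cKO.

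*Tubb4b* had 1213 and 1247 reads in control against 34 and 55 in *Eef1g*-cKO, or 306 and 563 FPKM against 94.9 and 84.3. Control 2 was the higher of the controls, as for *Tuba3a*, the *Eef1g*-cKO libraries were close, and the groups did not overlap. *Tubb4b* fell from 434 ± 182 to 89.6 ± 7.53 FPKM (SD, n = 2 libraries a group), by limma a log2 fold change of -2.20 ± 0.32 (standard error, adjusted p = 0.0307), and the pooled rate ratio was 4.52 (95% interval 3.66 to 5.65).

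*Tubb5*, the member with the fewest copied windows, had 1537 and 952 reads in control against 13 and 58 in *Eef1g*-cKO. In FPKM these are 234 and 260 against 22.0 and 53.7. Here the control libraries were close and the *Eef1g*-cKO libraries far apart, the opposite of *Tuba3a* and *Tubb4b*, but both *Eef1g*-cKO values were below both control values. The log2 fold change was -2.81 (standard error 0.42, limma adjusted p = 0.0307, edgeR adjusted p = 8.81e-06). It was -2.18 without *Eef1g*-cKO 1 and -3.43 without *Eef1g*-cKO 2. The pooled control rate was 5.73 times the *Eef1g*-cKO rate (95% interval 4.53 to 7.36, counting error only).

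Which β-tubulin led depended on the length used. *Tubb4b* exceeded *Tubb5* in FPKM in all libraries, by 1.30 and 2.17 times in control against 4.32 and 1.57 times in *Eef1g*-cKO. The gene length behind FPKM is 1600 bases for *Tubb4b* and 2645 for *Tubb5*, while their coding lengths are 1338 and 1335. Per coding kilobase and 1000000 reads, *Tubb4b* was 366 and 673 in control against 113 and 101 in *Eef1g*-cKO, and *Tubb5* was 464 and 515 in control and 43.5 and 106. On that scale *Tubb5* was the higher in control 1 and *Eef1g*-cKO 2 and *Tubb4b* in the other 2 libraries, so their order is not settled. *Tubb4b* had 48.7% to 72.3% of the reads of the pair in *Eef1g*-cKO and 44.1% to 56.7% in control, ranges that overlap. For the log2 ratio of FPKM the exact two-sided permutation test gave p = 0.667, where this design allows none below 0.333.

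**Figure D3:**
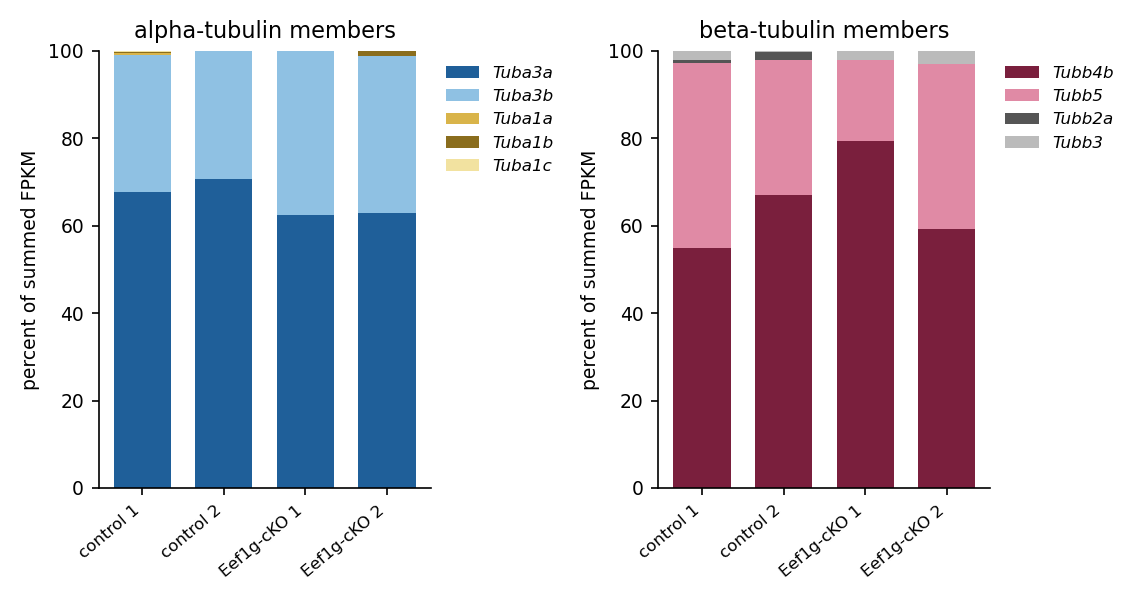
Stacked bars give the percentage of summed FPKM of the α members (left) and the β members (right) that each gene takes in each library, so every bar reaches 100%. Tuba3a and Tuba3b fill at least 98.8% of each α bar, and Tubb4b takes 55.0% and 67.0% of the β bar in control against 79.5% and 59.2% in Eef1g-cKO.

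*Tubb2a* had 17 and 31 reads in control, 4.27 and 13.9 FPKM, and none in either *Eef1g*-cKO library. Its control mean was 1.41 times the mean level that 3 reads give in the *Eef1g*-cKO libraries (6.46 FPKM). It was 1.09 times that level in *Eef1g*-cKO 1 (8.34 FPKM) and 1.99 times that in *Eef1g*-cKO 2 (4.58 FPKM). Control 1 lay below the 3-read level of both *Eef1g*-cKO libraries, and control 2 above it. limma called it (adjusted p = 0.0468), DESeq2 gave no adjusted p and edgeR's filter dropped it. *Tubb3* had 50 and 8 reads in control against 1 and 3 in *Eef1g*-cKO, or 11.7 and 3.35 FPKM against 2.59 and 4.27. The groups overlapped, with control 1 alone high (log2 fold change -0.77, standard error 0.64, limma adjusted p = 0.443), and the pooled rate ratio of 2.37 had a 95% interval of 0.878 to 8.99. Control 1 was also the library with the highest summed Sertoli markers, 898 FPKM against 352 to 456 in the others, and the part of those cells in *Tubb3* was not tested.

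*Tubg1*, the γ-tubulin gene, had 103 and 126 reads in control against 1 and 5 in *Eef1g*-cKO. These are 25.8 and 56.6 FPKM against 2.78 and 7.62. The groups did not overlap, and the *Eef1g*-cKO values rest on 6 reads in all. *Tubg1* fell by 2.78 on the log2 scale (standard error 0.56, limma adjusted p = 0.0451, edgeR adjusted p = 0.0032). The log2 value was -2.19 without *Eef1g*-cKO 1 and -3.38 without *Eef1g*-cKO 2. Its pooled rate ratio was 6.24, with a 95% interval from 2.82 to 17.2.

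**Figure D4:**
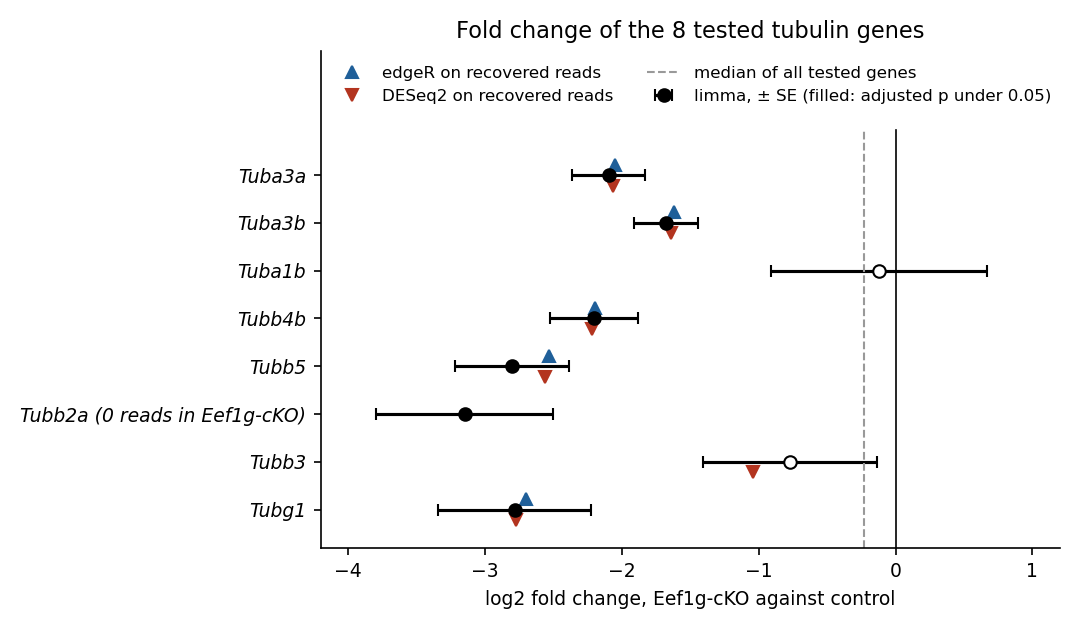
Log2 fold change of the 8 tested tubulin genes, Eef1g-cKO against control, from limma (circles with standard error, filled where the adjusted p was under 0.05), edgeR and DESeq2 (triangles, drawn where the tool gave an adjusted p), with the median of all tested genes as a dashed line. The 3 tools place Tuba3a, Tuba3b, Tubb4b, Tubb5 and Tubg1 between -1.62 and -2.81, and the Tubb2a value is a fitted value against 0 reads, not a bound.

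The FPKM ratio of summed α to summed β members was 1.46 and 1.44 in control against 2.10 and 1.81 in *Eef1g*-cKO. By reads, which gene length does not enter, the α members took 52.2% (95% exact interval 50.9% to 53.5%) and 53.3% (51.9% to 54.8%) of the α and β reads in control. In *Eef1g*-cKO they took 64.2% (55.4% to 72.3%) and 58.1% (52.1% to 64.0%). The α share was higher in both *Eef1g*-cKO libraries, with the interval of *Eef1g*-cKO 1 above both control intervals and that of *Eef1g*-cKO 2 overlapping them (exact two-sided permutation p = 0.333 for the log2 ratio of FPKM, the smallest this design allows).

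Ordered by FPKM, *Tuba3a* was first and *Tubb5* and then *Tubg1* followed the other 3 abundant members in every library. *Tubb4b* was above *Tuba3b* in control 1, control 2 and *Eef1g*-cKO 1 (94.9 against 94.1 FPKM) and below it in *Eef1g*-cKO 2, so these neighbours do not differ beyond the spread in *Eef1g*-cKO. In control *Tubb2a* (9.10 ± 6.84 FPKM) and *Tubb3* (7.53 ± 5.90 FPKM, SD, n = 2 each) also exchanged places between libraries.

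The genes whose profile over the 4 libraries lay nearest to that of *Tuba3a*, among 1589 tested genes that averaged 50 FPKM or more, were *Mcm2* (Euclidean distance 0.13 on the centred log2 scale), *Cdkn2a* (0.14) and *Tecr* (0.20). *Mcm2*, a subunit of the replicative helicase, had 171 and 235 FPKM in control against 46.4 and 48.0 in *Eef1g*-cKO. Nearest to *Tubb4b* were *Cox6b1* (0.12), *Lgals1* (0.16) and *Tecr* (0.18), and *Cox6b1*, a subunit of cytochrome c oxidase, had 148 and 286 against 44.2 and 43.7 FPKM. Likeness over 4 libraries mostly restates the difference between groups and the gap between the control libraries.

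The remaining tubulin genes were few. Counts in this and the following lists stand beside 4.97% of all tested genes decreased and 2.87% increased by limma's adjusted p. By unadjusted p these shares were 16.3% and 7.32%. No list was tested as a set. Of 10 other family members 6 had a row and 5 were tested, with 1 decreased by limma's adjusted p and 0 increased (2 and 0 by unadjusted p) and a median log2 fold change of -0.85. The decreased gene was *Tuba4a*, an α-tubulin gene of many tissues, at 22.8 and 30.3 FPKM in control against 8.70 and 8.36 in *Eef1g*-cKO (log2 fold change -1.52, standard error 0.31, limma adjusted p = 0.0459). DESeq2 did not call it (adjusted p = 0.131), and its *Eef1g*-cKO level rests on 4 and 7 reads. *Tubb6*, the other gene below the unadjusted threshold, had 8.09 and 10.4 FPKM against 0 and 2.81.

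Of 13 folding cofactor and prefoldin genes, all tested, 1 was decreased and 0 increased by limma's adjusted p (2 and 0 by unadjusted p). Beside this stand 4.97% and 2.87% of all tested genes (16.3% and 7.32% by unadjusted p). The list median was -0.25. The decreased gene was *Tbcb*, which encodes a cofactor that binds newly folded α-tubulin. *Tbcb* had 494 and 313 reads in control against 8 and 18 in *Eef1g*-cKO, or 170 and 193 FPKM against 30.5 and 37.6, and fell by 2.38 on the log2 scale (standard error 0.22, limma adjusted p = 0.0212, edgeR adjusted p = 2.89e-05). edgeR also called *Tbcd*, at 9.90 and 11.4 FPKM against 3.42 and 3.13, decreased (adjusted p = 0.0324) and the prefoldin gene *Vbp1*, at 35.5 and 35.2 FPKM against 75.3 and 65.8, increased (adjusted p = 0.0149), and DESeq2 called neither (adjusted p = 0.176 and 0.0829). The 9 chaperonin CCT genes, whose complex folds actin and tubulin, had a median of -0.12, with 0 called in either direction by limma's adjusted or unadjusted p. The most abundant of them, *Cct3*, had 502 and 653 FPKM in control against 520 and 495 in *Eef1g*-cKO (log2 fold change -0.17, standard error 0.23, limma adjusted p = 0.635, and 0.04 with the libraries centred).

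None of the 3 autoregulation genes was called by limma's adjusted p. *Ttc5*, whose product reads the first residues of nascent α- and β-tubulin, had 13.1 and 16.6 FPKM in control against 4.88 and 6.03 in *Eef1g*-cKO (log2 fold change -1.29, standard error 0.36, limma adjusted p = 0.0788, edgeR adjusted p = 0.0441). It was the 1 gene of the list below the unadjusted threshold. *Scaper*, which links TTC5 to the deadenylase, had 42.6 and 34.8 FPKM against 52.7 and 55.9 (log2 fold change 0.49, limma adjusted p = 0.214, and 0.035 after GC correction). The list median was 0.34.

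Of the 17 genes of the γ-tubulin ring complex and augmin, the partners of *Tubg1* in microtubule nucleation and branching, 1 was decreased and 0 increased by limma's adjusted p, 3 and 1 by unadjusted p, with a median of -0.45. The decreased gene was the augmin subunit gene *Haus3*, with 33.5 and 29.6 FPKM in control against 6.87 and 10.1 in *Eef1g*-cKO, where it had 3 and 8 reads (log2 fold change -1.80, standard error 0.32, limma adjusted p = 0.0374, edgeR adjusted p = 0.0105), and DESeq2 did not call it (adjusted p = 0.0668). *Nedd1*, which recruits the ring complex, was the 1 gene of the list above the unadjusted threshold, at 6.16 and 4.91 FPKM in control against 13.9 and 16.0 in *Eef1g*-cKO. edgeR called it increased (adjusted p = 0.0192) and *Cdk5rap2*, which encodes a centrosomal activator of the ring complex, decreased (adjusted p = 0.0144), and DESeq2 called neither (adjusted p = 0.0881 and 0.0854).

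Among 28 genes for enzymes that modify tubulin, 19 had a row and 15 were tested, with 1 increased and 1 decreased by limma's adjusted p and a median of -0.10. Both encode α-tubulin deacetylases. *Hdac6* had 137 and 153 FPKM in control against 14.0 and 34.9 in *Eef1g*-cKO, a log2 difference of -2.65 (standard error 0.42, limma adjusted p = 0.0335, edgeR adjusted p = 1.41e-05), which was -2.02 without *Eef1g*-cKO 1 and -3.28 without *Eef1g*-cKO 2. *Sirt2* had 27.9 and 22.1 FPKM in control against 55.1 and 56.6 in *Eef1g*-cKO, a log2 difference of 1.14 (standard error 0.24, limma adjusted p = 0.0484, edgeR adjusted p = 0.0103), and DESeq2 did not call it (adjusted p = 0.0523). By unadjusted p, 3 genes of the list were decreased and 1 increased. *Ttll12*, of the tubulin tyrosine ligase-like family, had 187 and 153 reads in control against 7 and 8 in *Eef1g*-cKO, and was called decreased by edgeR (adjusted p = 0.00335) and DESeq2 (adjusted p = 0.0202) but not by limma (adjusted p = 0.0513). *Ttll1* was called decreased by edgeR alone (adjusted p = 0.0448).

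Of 34 genes for microtubule binding, severing and plus-end proteins, 29 had a row and 27 were tested. limma called 0 by adjusted p in either direction, and 3 decreased and 1 increased by unadjusted p, with a median of -0.30. Their most abundant member, *Ckap5*, which encodes a microtubule polymerase, had 120 and 117 FPKM in control against 90.3 and 94.7 in *Eef1g*-cKO (log2 fold change -0.36, standard error 0.19, limma adjusted p = 0.26, and -0.83 with adjusted p = 0.0549 after GC correction). The severing enzyme gene *Spast* had 8.07 and 4.92 FPKM in control against 30.4 and 16.2 in *Eef1g*-cKO, and was called increased by edgeR (adjusted p = 0.0024) and DESeq2 (adjusted p = 0.00463) but not by limma (adjusted p = 0.0703). edgeR alone called *Katnal1* increased (adjusted p = 0.0386) and *Clip2* decreased (adjusted p = 0.0107).

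**Figure D5:**
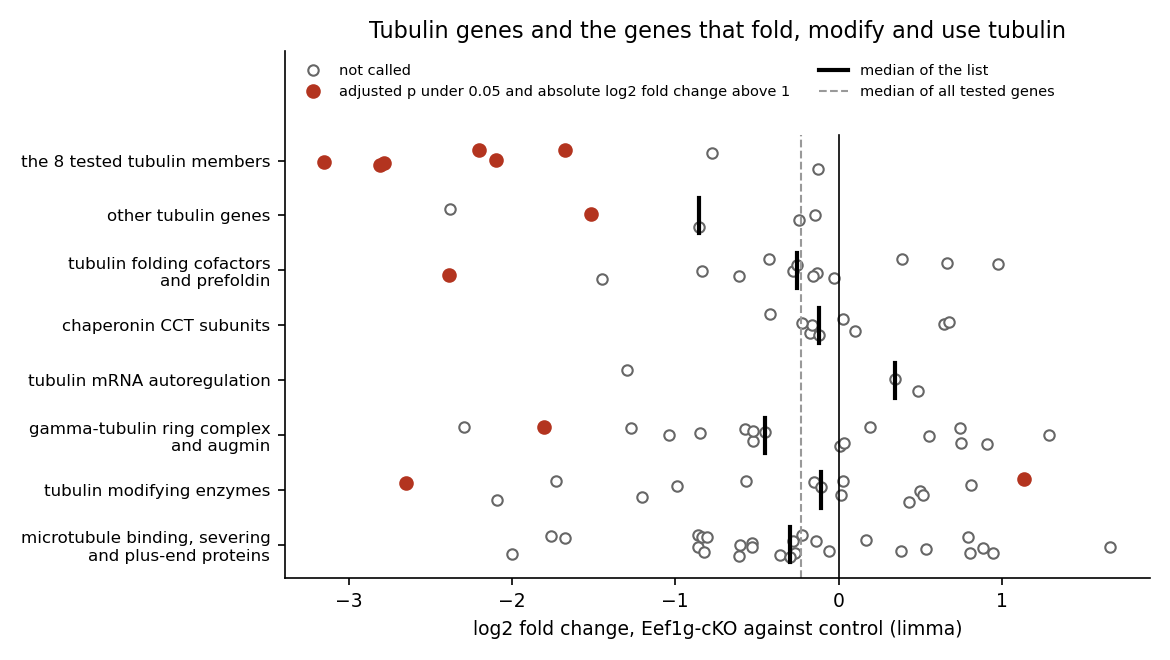
Each point is a gene's limma log2 fold change, Eef1g-cKO against control, for the 8 tested tubulin members and the 7 lists of related genes, with filled points where the adjusted p was under 0.05 and the absolute fold change above 1, black bars for list medians and a dashed line for the median of all tested genes. The called members lie at -1.68 or below, while the medians of the lists lie between -0.85 and 0.34.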

How the data were processed

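RPFs from 4 Ribo-seq libraries were analysed, 2 control and 2 *Eef1g*-cKO, grouped by their labels. The authors deposited 1 table with FPKM values, per kilobase of gene length and 1000000 reads counted on genes, and a normalized signal, for which the authors had scaled the counts of a library by its size factor. All of these (100% in each library, within 0.001) are whole multiples of 1 step, which gave back the reads. Its 6 columns of the authors' own comparison (mean, log2 fold change, its error, test score, p-value and adjusted p) were not used. The study's methods name RiboMiner, after adapters were trimmed, low-quality reads removed and the rest aligned to the genome, and the submitters' processing notes list cutadapt, Bowtie, STAR, mm10 and hg38 without a role. The annotation and the treatment of multi-mapping reads are not given in the sources used here.

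The test was limma 3.58.1 under R 4.3.3, its prior variance following a trend, on log2(FPKM + 1) of genes that averaged 1 FPKM or more. Alternatives on recovered reads were DESeq2 1.42.0 and edgeR 4.0.16 (quasi-likelihood, TMM factors, genes kept by filterByExpr), beside other pseudocounts, filters, scalings, GC correction, a replicate block and omitted libraries. Whether a replicate number shared by groups pairs the libraries is not known. The deviations of control 1 and *Eef1g*-cKO 1 correlated at -0.008. With a median of 5 and 8 reads per gene in *Eef1g*-cKO 1 and 2, counting noise can hide a pairing, so this value cannot decide it. Intervals are exact at 95% and, like the floor of 3 reads, cover counting error only. Coding windows came from GENCODE M21, coordinates from RefSeq on GRCm38.p6, with scipy 1.17.1 and numpy 2.4.6 under Python 3.11.15. The tests were checked on simulated counts, only for the sign and size of changes set in genes above a minimum expected count. No rate of false calls was measured, and genes with as few reads as *Tubb2a* were not among those changed.

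Named genes are the 10 members, *Eef1g*, the called genes of each list or else its most abundant gene, and the 3 nearest profiles of *Tuba3a* and *Tubb4b*. *Tubb6*, *Tubg2*, *Ttc5*, *Nedd1* and the genes called by edgeR or DESeq2 alone were named after their values were seen. Members and lists were chosen with earlier results of these data known. Lists of spermatid, Leydig, peritubular, and macrophage and blood markers were given by their sum only.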

Additional observations from a re-analysis of the deposited data

How the results depend on the processing

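The count of 6 members decreased by limma's adjusted p became 0 with a pseudocount of 0.1, with reads thinned to the smallest library, with a prior variance without a trend, and when a control library was left out (0 to 6 over the omitted libraries, the lone remaining control being assumed to vary like *Eef1g*-cKO). It was 4 without a filter, where *Tubb2a* and *Tubg1* were not called, and 5 with a pseudocount of 5, at a minimum of 5 FPKM, in edgeR and in DESeq2, where *Tubb2a* was not called. By unadjusted p the count stayed between 4 and 7 under all alternatives. With the replicate number as a block, 6 members were again called, and the whole table gave 424 increased and 822 decreased genes in place of 301 and 521. *Tuba3a*, *Tuba3b*, *Tubb4b*, *Tubb5* and *Tubg1* kept a negative fold change under all 17 alternatives. *Tuba1b*, with a log2 fold change of -0.12, was 0.034 with a pseudocount of 5, 0.030 after GC correction with and without the block, 0.091 with centred libraries, and -1.15 to 0.90 over the omitted libraries. *Tubb3* was 0.49 with thinned reads, and *Cct3* was 0.039 with centred libraries and -0.36 to 0.014 over the omitted libraries. Whole-table counts, increased then decreased, were 29 and 47 with a pseudocount of 0.1, 205 and 373 without a filter, 410 and 576 at a minimum of 5 FPKM, 521 and 383 with centred libraries, 705 and 904 in edgeR and 502 and 451 in DESeq2. They were 0 and 0 with thinned reads, without a trend and without either control library, 321 and 1086 without *Eef1g*-cKO 1, and 537 and 1432 without *Eef1g*-cKO 2. By unadjusted p these 0 and 0 settings gave 701 and 1269 (thinned), 793 and 1811 (no trend), 548 and 1013 (without control 1) and 479 and 795 (without control 2).

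Shares moved with the length used. By reads, *Tuba3a* took 61.9% of the α members in *Eef1g*-cKO in place of 62.8%. On the same scale *Tubb4b* took 49.4% of the β members in control in place of 61.0%, and *Tubb5* 48.5% in place of 36.5%. Per unique window, chosen after seeing the data, *Tuba3a* took 61.3% in control and 54.0% in *Eef1g*-cKO, *Tuba3b* 34.9% in *Eef1g*-cKO, *Tubb4b* 81.2% and 86.3%, and *Tubb5* 17.2% and 12.7%. The 2 *Tuba3* genes together took 99.5% in control and 99.4% in *Eef1g*-cKO by FPKM, and 90.8% and 88.9% per unique window. GC correction moved *Ckap5* from -0.36 to -0.83, *Scaper* from 0.49 to 0.035 and *Haus3* from -1.80 to -2.57 on the log2 scale. Depth limits *Tuba1a*, *Tuba1b*, *Tuba1c*, *Tubb2a*, *Tubb3* and *Tubg1*, with 0 to 6 reads over both *Eef1g*-cKO libraries.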
